A study of Canis lupus familiaris with 51 samples.

Results

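ENSCAFG00000017018 was among the most abundant transcripts of the canine hemangiosarcomas, and 100 genes are described here, namely this lead gene and the 99 genes whose levels followed it most closely across 32 spleen tumours, out of 16382 genes in all. The 99 followers were chosen by their values. Of the 9631 genes whose spleen mean reached 5 FPKM, 894 that ran with the first principal component (absolute Pearson correlation of 0.7 or more) were dropped. Of the 8736 candidates left beside the lead gene the 99 with the highest Pearson correlation of log2(FPKM + 1) were kept. FPKM divides the fragments of a gene by its length and by the mapped fragments of the sample, so levels can be set side by side between genes. The first principal component is the axis that holds more of the variation between tumours than any other single axis, here 24.4% of it in spleen.

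Hemangiosarcoma is a malignant tumour of cells related to the lining of blood vessels, common in dogs and often found in spleen and heart. It forms irregular blood-filled channels within a stroma of fibroblasts, matrix, vessel wall cells and immune cells, and a piece taken for RNA can also hold cells of the host organ. A gene group that rises and falls together across such samples can follow one kind of cell or one programme within a cell. In bulk samples fewer cells of a type and less RNA per cell cannot be told apart.

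RNA was sequenced from 51 canine tumours labelled as hemangiosarcoma, with no treatment stated. Among the 32 spleen tumours 16 were from females and 16 from males, 20 of them neutered and 12 intact, 20 Golden Retrievers and 12 dogs of other breeds, aged 3 to 13.6 years at diagnosis. The 11 heart tumours came from 3 females and 8 males, 6 of them neutered and 6 of them Golden Retrievers, aged 5.9 to 11.2 years. The 3 liver tumours came from females aged 9.6 to 10.9 years, 2 of them neutered and 1 of them a Golden Retriever. The other 5 tumours carry 1 tissue label each. The cutaneous tumour came from a neutered female Bichon Frise of 10.7 years, and the metastatic tumor from a neutered female Golden Retriever of 11.3 years. The abdominal mass came from an intact male Boxer of 8.7 years, and the metastatic abdominal mass from a neutered female Lab/Husky Mix of 9 years. That labelled as of undetermined histogenic origin was from an intact female Golden Retriever of 0.7 years. The labels do not say that each sample is a separate dog, so p-values measure only the spread between these samples. Relative sequencing depth was solved from the most frequent ratio between each pair of libraries over genes of low FPKM. It ran from 0.503 to 2.04 in spleen and from 0.812 to 1.42 in heart, and absolute depth is unknown.

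The files give Ensembl identifiers only, and a RefSeq table of symbols (assembly UU_Cfam_GSD_1.0) held 0 of the 16382. The lists of cell type markers, collagens, matrix proteins and other groups could therefore not be scored, and no role can be given for a member. The tissue labels were not checked against marker genes for the same reason. Only the lead gene and 4 followers are named.

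Spleen 14, an intact male Golden Retriever of 10.1 years, stands apart and touches every result on the spleen tumours. The lead gene and its 2 closest followers, ENSCAFG00000014812 and ENSCAFG00000002069, are each listed at exactly 0 FPKM in this tumour. Among 312 genes with a median of at least 200 FPKM over the 51 tumours, these 3 were the only ones listed at 0 in any tumour, and 0 genes were so in a tumour other than spleen 14. Its relative depth lay within the range of the other spleens, and its 2907 genes listed at 0 compare with 2358 to 3088 in them. Its upper quartile of 25.9 FPKM was the highest of the spleens. Whether the 0 is a low level or a value that was not estimated was not tested. Many spleen results are given with and without this tumour, and the others include it.

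The lead gene varied widely. Outside spleen 14 it ran from 23.6 FPKM in spleen 19 through a median of 797.6 to 8274 FPKM in spleen 2, a 351-fold range. Spleens 29 and 18 were also low, with 52.1 and 63.6 FPKM, and spleens 16, 30 and 26 high, with 7398, 5836 and 4268 FPKM. Its log2 level had an SD of 2.67 over the 32 spleen tumours and 2.10 without spleen 14, against a median SD of 0.50 over the 9631 genes. It ranked 21st by mean level in spleen and 3rd in heart among the 16382 genes, and it was the most abundant gene of all in 5 tumours.

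In heart the lead gene was at 3935, 2877, 6104, 588, 409, 710, 727, 3175, 11838, 1360 and 3225 FPKM in hearts 1 to 11. Hearts 9 and 3 were the highest, hearts 4, 5, 6 and 7 the lowest, and the range was 29-fold. The 3 liver tumours had 1699, 759.5 and 114 FPKM. The cutaneous tumour was high, at 5687 FPKM, the abdominal mass had 2611 FPKM, the metastatic abdominal mass 500.2, the metastatic tumor 423, and the tumour of undetermined origin 219.9.

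**Figure D1:**
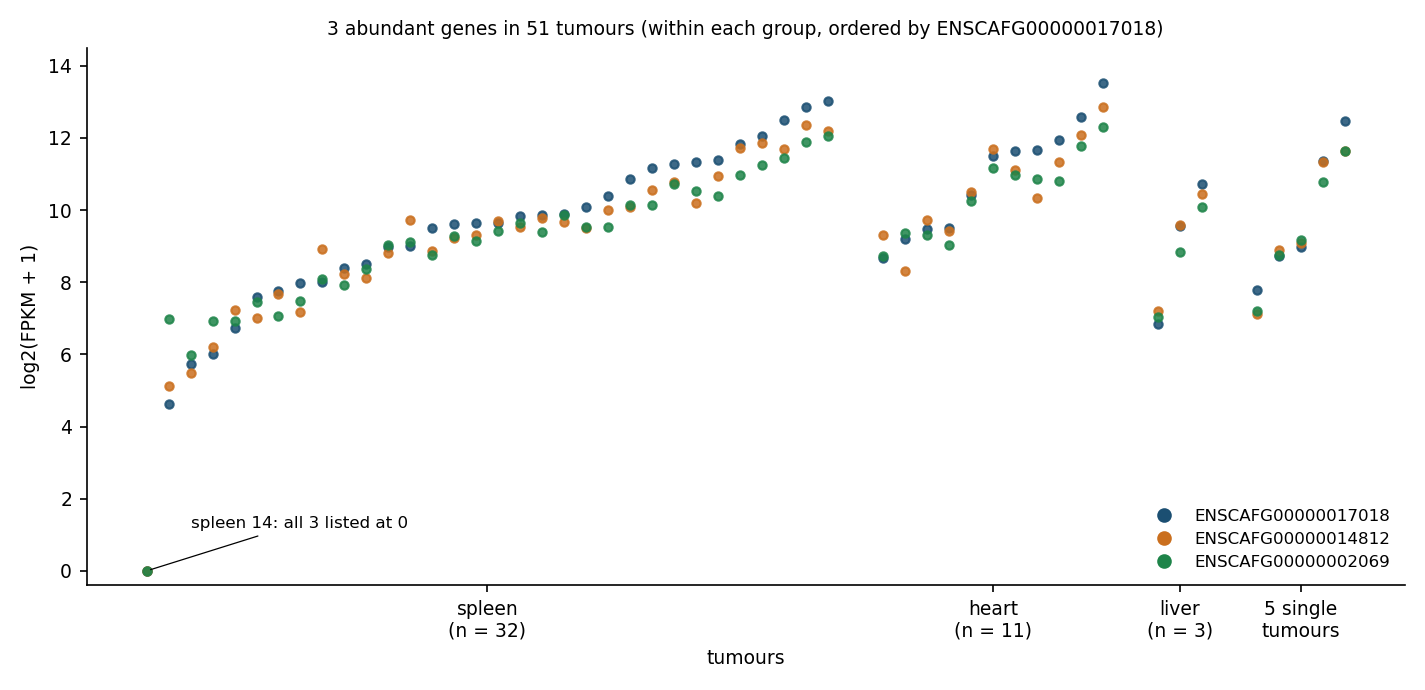
Levels of ENSCAFG00000017018 and its 2 closest followers as log2(FPKM + 1) (vertical axis) in each of the 51 tumours, 1 column of points per tumour, grouped by tissue label and ordered by the lead gene. In spleen and heart the 3 genes climb together with exceptions (from heart 5 to heart 4 ENSCAFG00000014812 falls from 631.2 to 319.5 FPKM). Spleen 14 sits at 0 for all 3.

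In the 32 spleen tumours ENSCAFG00000014812 and ENSCAFG00000002069 followed the lead gene far more closely than any other candidate. Their Pearson correlations with it in the 32 spleen tumours were 0.99 and 0.98, the values that chose them, and 0.98 and 0.97 without spleen 14 (Spearman 0.97 and 0.99 in both sets). The third follower was at 0.71 and the fourth at 0.65. correlations beyond the fourth follower fell slowly to 0.499 and 0.498 for the last 2 members. The first 2 genes left out had 0.498 and 0.497, so the edge of the list marks no step. A further 18 genes dropped for their link to the first principal component had correlations at or above that of the last member, up to 0.66.

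The closest follower, ENSCAFG00000014812, ran from 33.8 FPKM in spleen 19 through a median of 732.8 to 5220 FPKM in spleen 16, leaving out spleen 14. In hearts 1 to 11 it was at 2556, 3307, 4367, 319.5, 631.2, 837.7, 689.1, 2196, 7419, 1448 and 1285 FPKM. As with the lead gene, hearts 9 and 3 were the highest and hearts 4 to 7 the lowest.

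The second, ENSCAFG00000002069, ran from 62.7 FPKM in spleen 29 through a median of 677.7 to 4219 FPKM in spleen 2, again without spleen 14. Its levels in hearts 1 to 11 were 1794, 2320, 3502, 658.8, 420.8, 632.6, 521.7, 2013, 5049, 1230 and 1877 FPKM. The order of the hearts was nearly that of the other genes, with the same 4 hearts lowest. The 3 genes together took up to 3.26% of the summed FPKM of a spleen tumour (spleen 2) and up to 4.40% in heart (heart 9), with medians of 0.45% in spleen without spleen 14 and 1.19% in heart.

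The heart tumours took no part in choosing the members, so each gene's slope on the lead gene was tested there (limma on log2 values, 11 tumours, p-values adjusted over all 11894 genes tested). Only these 2 of the 99 followers passed, both rising with the lead gene. Among all genes 0.412% passed as rising (49 genes) and 0.00841% as falling (1 gene), and 816 genes, 7 followers among them, had an unadjusted p under 0.05. Over the 8687 candidates tested the shares were 0.46% rising and 0.0115% falling.

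For ENSCAFG00000002069 the heart slope was 0.74 ± 0.07 (SE) log2 units per log2 unit of the lead gene, with a limma adjusted p of 0.00096. Its heart correlation was 0.98 (Spearman 0.87), with permutation p-values of 1e-05, the smallest that 100000 permutations can give, and 0.00079. ENSCAFG00000014812 had a slope of 0.81 ± 0.11 (SE, limma adjusted p = 0.0053) and a correlation of 0.93 (Spearman 0.89, permutation p = 6e-05 and 0.00053). Without hearts 4 and 5, the farthest from the median of the lead gene, the correlations were 0.98 and 0.93. Without heart 9 ENSCAFG00000014812 kept its slope, 0.79, but not its call (limma adjusted p = 0.068). Heart 1 alone among the hearts has a title starting with CHAD in place of DHSA, prefixes the labels do not explain. Without it the slopes of ENSCAFG00000002069 and ENSCAFG00000014812 were 0.76 and 0.82, and both calls remained.

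The other 97 followers had heart correlations spread around 0. Their median heart correlation was -0.06, with a range from -0.81 to 0.62, against a median of 0.05 over the candidates. Of the 97, 40 had a heart correlation above 0, while 55.7% of the candidates did. A value of at least 0.5 was reached by 4 of the 97 and by 9.80% of the candidates. Over all 99 followers 42 heart slopes were above 0, with a median of -0.02. Without heart 5, the lowest for the lead gene, 24 were, with a median of -0.11. The share of all genes with a slope above 0 in that run is not given here. The 24 can therefore not be set against a background.

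The followers with the lowest heart correlations, named by rule, were ENSCAFG00000019547 and ENSCAFG00000016822. ENSCAFG00000019547 was at 20.7, 18, 14.7, 29.1, 34.5, 36.8, 22.2, 13.9, 9.94, 42.4 and 10.5 FPKM in hearts 1 to 11. It was lowest in heart 9, where the lead gene was highest. The heart correlation was -0.81 (Spearman -0.78), a description since this value chose the gene, and the slope was -0.36 ± 0.08 (SE), which was not called over all genes. In spleen its correlation of 0.50 with all 32 tumours became 0.09 without spleen 14, where it was listed at 0 FPKM against 5.08 to 56.8 in the others.

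ENSCAFG00000016822 had a heart correlation of -0.54 (Spearman -0.53), again the value that chose it, and a slope of -0.13 ± 0.07 (SE), not called over all genes. Its heart level ran from 8.57 through a median of 11.8 to 22.1 FPKM. The spleen correlation was 0.52 with all tumours and 0.38 without spleen 14, where the gene stood at 0.757 FPKM, its lowest spleen value.

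In spleen, most of the 97 were lowest in the same tumour as the lead gene. For 69 of the 97 the lowest of the 32 values was in spleen 14, and for 52 its level there was below 0.1 of the median of the other spleens. Over the 9631 genes of this abundance, 7.86% were lowest in spleen 14. The median of the 97 ratios of spleen 14 to the median of the other spleens was 0.088, against 1.05 for the candidates. Only 3 of the 97 were above the median of the other spleens there. These counts are descriptions, since the rule used the same values.

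**Figure D2:**
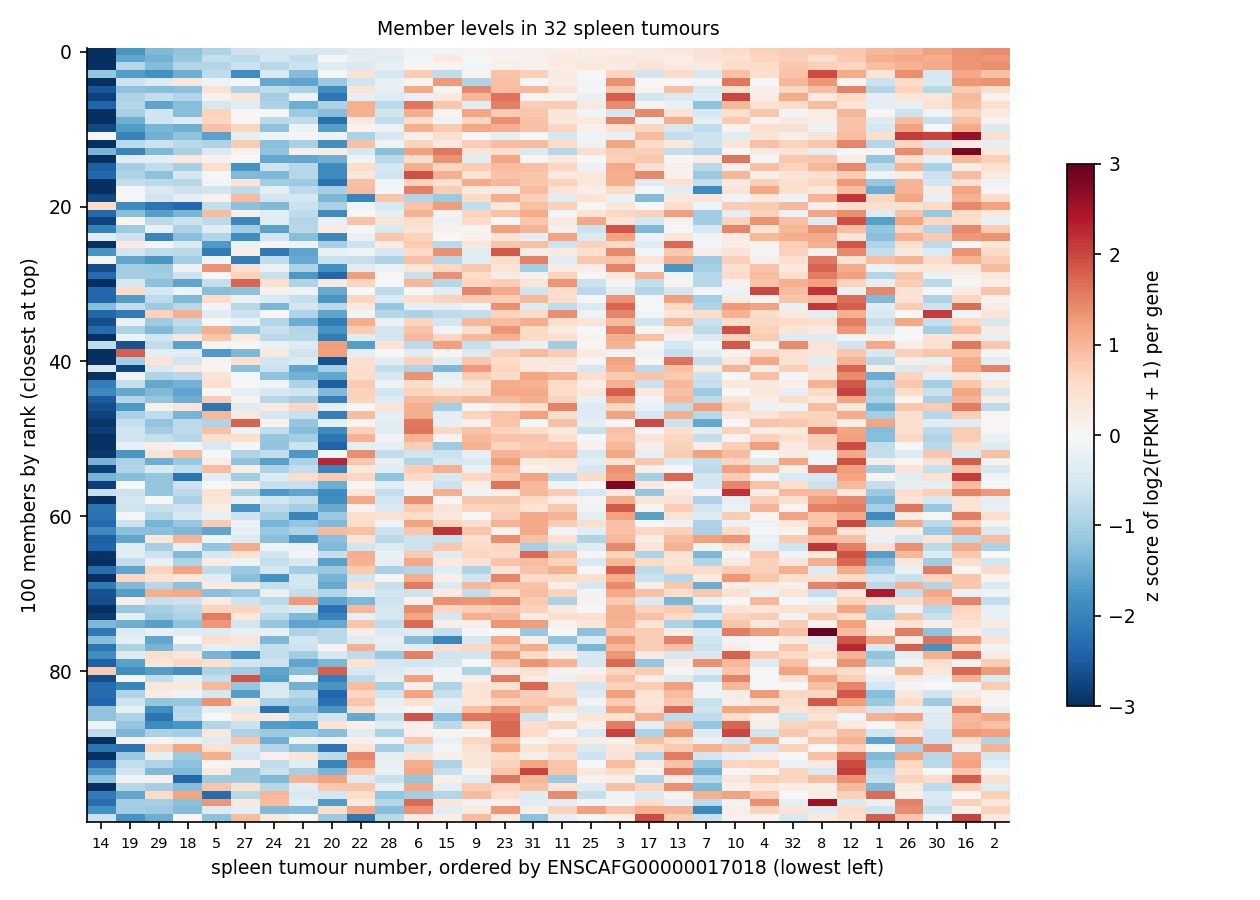
Levels of the 100 members (rows, by rank) in the 32 spleen tumours (columns, ordered by ENSCAFG00000017018), as z scores of log2(FPKM + 1) per gene. The lead gene is the top row; it and the next 2 rows grade from left to right, and below them the darkest column is spleen 14, with a median z score of -2.37 over the other 97 genes.

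Without spleen 14 the correlations of the 97 with the lead gene fell to a median of 0.38 (range 0.09 to 0.84), from 0.53 (0.50 to 0.71). A value of at least 0.5 was then held by 17 of the 97. These are descriptions, since the other spleens also took part in the choice, and the count of candidates reaching 0.5 is not given here. For the 97, rank correlations, which weigh a single extreme tumour less, had a median of 0.41 with all 32 tumours and 0.35 without spleen 14. When the whole rule was run again without spleen 14, 8 of the 100 members were chosen again, the lead gene and its 2 closest followers among them. Leaving out any other single spleen tumour left between 75 and 98 members in place.

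**Figure D3:**
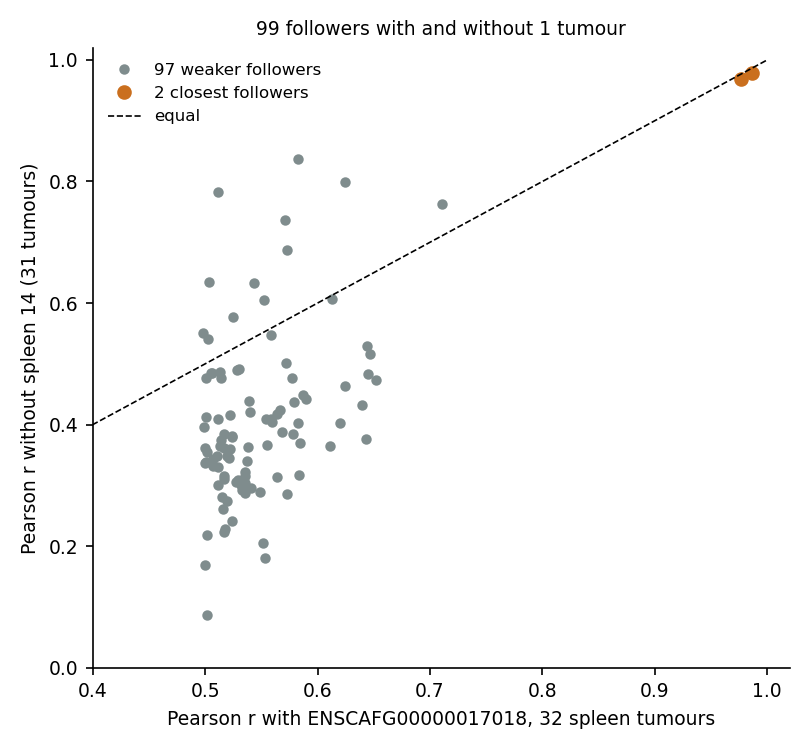
Pearson correlation of each of the 99 followers with ENSCAFG00000017018 in all 32 spleen tumours (horizontal axis) and in the 31 without spleen 14 (vertical axis), 1 point per gene; the dashed line marks equal values. The 2 closest followers stay at 0.97 or above, and most others lie below the line, with a median of 0.38.

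Among themselves the 97 genes moved together more than candidates did, also where the lead gene did not. Their mean pairwise correlation was 0.52 in the 32 spleens, 0.44 without spleen 14 and 0.20 in heart, against 0.006, 0.006 and 0.007 for the candidates. Part of the spleen value follows from the rule, which put genes with a shared partner on 1 list. Their mean log2 level ran from 2.07 in spleen 14 and 3.28 in spleen 20 to 5.97 in spleen 12. Its correlation with the lead gene was 0.73 in all spleens, 0.59 without spleen 14 and -0.05 in heart. Both spleen values are descriptions, since the rule used these tumours. Of the 99 followers, 95 had a negative correlation with the first principal component of the spleen tumours, with a median of -0.47, against 52.5% of the candidates and a median of -0.03. The lead gene had -0.27, and both the filter on this axis and the choice by correlation bear on the count. Their levels were moderate, with a median spleen mean of 32.9 FPKM over the 97 genes and a range from 5.55 to 913.1.

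The rule without spleen 14 gave a list of another kind, chosen after that tumour was seen to stand apart. Of its 99 followers, 7 were shared with the list from all 32 spleens, which is 7.07% of each. The correlations that chose them ran from 0.68 to 0.98, with a median of 0.745. In heart, which this rule did not use either, 99 of the 99 had a correlation above 0 and 82 had at least 0.5, with a median of 0.71. Among the candidates of the rule with all 32 spleens, another pool, 55.7% were above 0 and 9.80% reached 0.5. The heart slope passed for 18 of the 99 followers, all rising, against 0.422% rising and 0.0117% falling of the 8536 tested candidates of the rule without spleen 14 (limma, adjusted over all genes). Without heart 9, 8 of them passed, while 19 of all genes did, and without any other single heart 13 to 20 passed. The mean log2 level of this list, leaving out the 2 closest followers, had a correlation with the lead gene of 0.95 in the 31 spleens and 0.98 in heart. The spleen value is a description, since those 31 tumours chose the list.

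In spleen 14 the genes of this second list were high where the lead gene was listed at 0. Leaving out the same 2 followers, 73 of 97 had their highest spleen value there and 95 were above the median of the other spleens. The median ratio to that median was 6.71. Their mean log2 level was 7.69 in spleen 14, against 3.1 to 6.46 in the other spleens and 4.78 to 6.68 in heart. The shares of all genes that were highest in spleen 14, or above the median of the other spleens there, are not given here. The counts of 73 and 95 can therefore not be set against a background and are descriptions only.

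**Figure D4:**
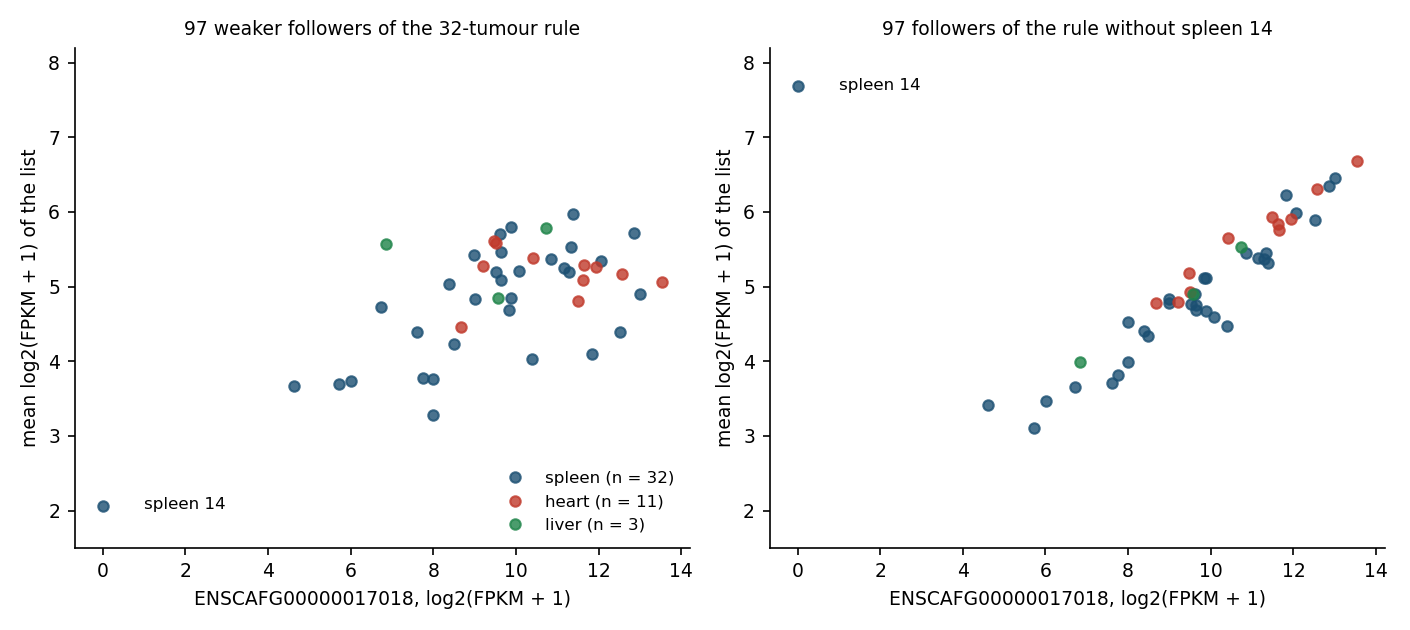
Mean log2(FPKM + 1) of 97 genes (vertical axis) against ENSCAFG00000017018 (horizontal axis) in spleen, heart and liver tumours, 1 point per tumour; left, the followers from all 32 spleens beyond the closest 2, right, those of the rule without spleen 14. Spleen 14 is the lowest tumour on the left (2.07) and the highest on the right (7.69), and the hearts follow the lead gene on the right only (correlations of -0.05 and 0.98).

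**Figure D5:**
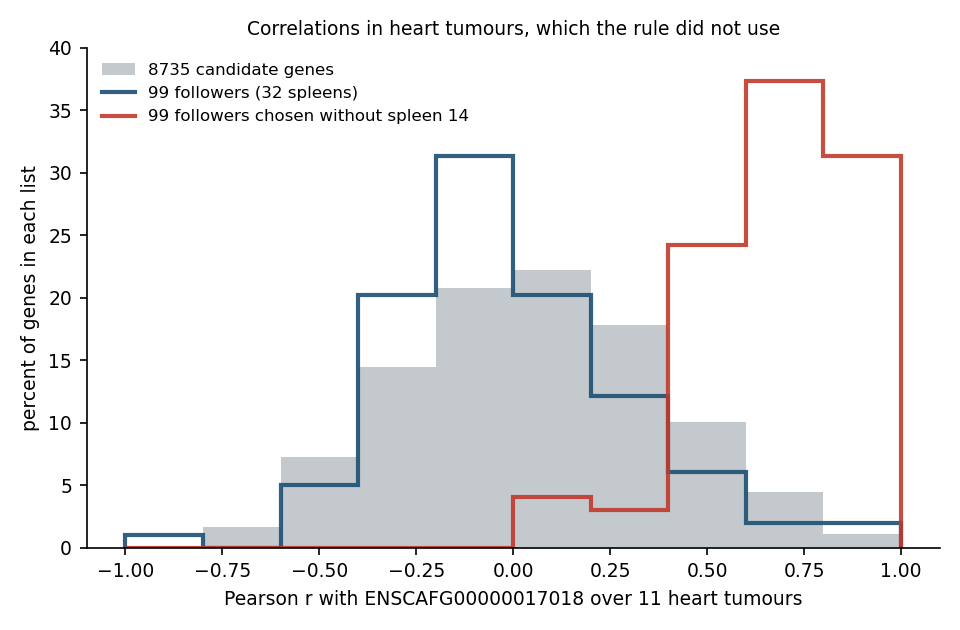
Distribution of Pearson correlations with ENSCAFG00000017018 over 11 heart tumours (horizontal axis), as percent of each gene list (vertical axis), for the candidates (grey), the 99 followers (blue) and the 99 followers chosen without spleen 14 (red). The blue line peaks just below 0, near the grey area, and the red line lies to the right, with medians of -0.03, 0.05 and 0.71 for followers, candidates and second list.

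Heart and spleen tumours were compared to ask whether members differ by site. limma called 0 of the 100 members in either direction, against 0.155% of 12887 genes higher in heart (0.0458% of the candidates) and 0% lower, and the smallest adjusted p among members was 0.14. At an unadjusted p under 0.05 there were 28 members and 1358 genes. The median member difference (heart minus spleen, log2) was 0.48 and 81 of 100 were above 0, against a median of 0.00 and 50.2% over all genes. Without spleen 14 the median was 0.43 and 75 were above 0. The rule chose members that move together in spleen, so these counts are not of independent genes.

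The heart minus spleen difference of the lead gene was 1.67 ± 0.82 (SE, log2), which did not pass (limma adjusted p = 0.47), and 1.37 ± 0.67 without spleen 14 (limma adjusted p = 0.40). The organs overlapped: 7 of 11 hearts were above the spleen median and 21 of 32 spleens lay within the heart range. The 3 liver tumours likewise had 0 members called against spleen (0% of 12887 genes higher and 0% lower, 10 members and 778 genes at an unadjusted p under 0.05). The liver minus spleen difference of the lead gene was -0.20 ± 1.42 (SE, limma adjusted p = 0.99).

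Within spleen the tumours were compared by the dogs' labels. limma called 0 of 100 members for sex, neuter status, breed class, age and title prefix, against 0% of 12645 genes in each direction for each of these. At an unadjusted p under 0.05 there were 0, 1, 0, 10 and 1 members and 1029, 618, 260, 1391 and 512 genes.

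For age, the members at an unadjusted p under 0.05, 10 of 100, were a share close to that over all genes, 1391 of 12645. The median slope of the 100 members was -0.10 log2 units per year, with 11 members above 0, against a median of 0.00 and 52.5% above 0 over all genes, and the smallest adjusted p of a member was 0.34 (limma). Members were chosen to move with 1 gene across these tumours, so they tend to share a sign. Such counts of members are not independent and are descriptions only. The lead gene had -0.22 ± 0.21 per year (SE, limma adjusted p = 0.72). Without spleen 14 the median slope was again -0.10, with 10 members above 0 and 15 at an unadjusted p under 0.05. The count over all genes in that run is not given here, so the 15 cannot be set against a background.

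The male minus female difference of the lead gene was -0.24 ± 0.92 (SE, log2) with spleen 14 and 0.37 ± 0.73 without it (limma adjusted p = 0.96 and 0.90), so its sign turned with that tumour. For neutered minus intact dogs the median of the members was 0.17 with 79 of 100 above 0, against 0.01 and 51.6% over all genes. Without spleen 14 the members' median was -0.06 with 35 above 0, against 0.01 and 51.8%. As for age, these counts come from genes chosen to move together and are descriptions only. The lead gene stood at -0.46 ± 0.97 and -1.26 ± 0.75 (SE) with and without spleen 14, neither past the threshold. The Golden Retriever minus other breeds difference of the lead gene was 0.25 ± 0.95 (SE, not past the threshold), and 0.74 ± 0.74 without spleen 14. The CHAD (n = 5) minus DHSA (n = 27) difference was 1.5 ± 1.24 (SE, log2, limma adjusted p = 0.96), and 1.16 ± 0.98 without spleen 14.

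Of 5 relations between the lead gene and library measures, 0 passed an adjusted permutation p of 0.05. Its correlation with log2 relative depth was -0.16 in spleen (Spearman -0.20, permutation p = 0.37 and 0.28, adjusted p = 0.46 and 0.52) and 0.21 in heart (Spearman 0.18, permutation p = 0.53 and 0.60, adjusted p = 0.53 and 0.63). With the log2 sum of FPKM it was -0.24 in spleen (Spearman -0.09, permutation p = 0.17 and 0.63, adjusted p = 0.44 and 0.63) and 0.31 in heart (Spearman 0.34, permutation p = 0.35 and 0.31, adjusted p = 0.46 and 0.52). With the first principal component score in spleen it was -0.27 (Spearman -0.29, permutation p = 0.13 and 0.11, adjusted p = 0.44 and 0.52), and without spleen 14 it was -0.39 (permutation p = 0.03, not adjusted). Leaving out the 2 tumours farthest from the median of each measure gave -0.22, 0.35, 0.13, 0.62 and -0.25, in the same order. Without spleen 14 the spleen correlations with log2 relative depth and the log2 sum of FPKM were -0.16 and -0.03 (permutation p = 0.39 and 0.87, not adjusted).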

How the data were processed

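The authors deposited FPKM values for 16382 genes in each tumour. The tools, per the submitters' processing notes, were TopHat 1.4.1, Cuffdiff and FastQC 0.11.2, with build CanFam3.1. The Cuffdiff version, annotation, filters, strand setting and any scaling between libraries were not given in the sources used here. Analysis used log2(FPKM + 1), so a fold change on this scale is too small for low genes.

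Groups came from the tissue labels, numbered in sample order. The members and lists were chosen with earlier results of these data known. Members were picked by the rule given above in Python 3.11.15. Genes reaching 1 FPKM in 3 or more of the tumours fitted entered limma 3.58.1 in R 4.3.3 (mean trend, Benjamini-Hochberg over all genes tested, adjusted p under 0.05, two-sided), after checks on simulated data. Spleen, heart and liver shared 1 fit, neuter status had sex as covariate, and other fits had none. Permutation tests were two-sided. Relative depth came from the ratios of nonzero FPKM between each pair of libraries over 1959 low genes. For each pair the most crowded window of 0.04 (log2) was taken, which held a median of 14.7% of the ratios. The solved depths met 100% of library pairs within 0.05 (log2). Named beside the lead gene, by rule, were the 2 followers with the highest spleen and the 2 with the lowest heart correlation. Alternatives were another pseudocount, filters, rescaling, robust fits, covariates and left-out tumours. Sequences were not used here.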

Additional observations from a re-analysis of the deposited data

How the results depend on the processing

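The member list depended on spleen 14 and on the type of correlation. Of the 100 members, 17 were chosen again with Spearman correlation, 62 with the DHSA titles only, 8 without spleens 14 and 19, and 8 to 98 without 1 spleen tumour in turn, the lowest without spleen 14. The settings with another pseudocount, principal component limit, mean FPKM or rescaling kept the count within 1.5 times.

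Heart slopes were called for 2 followers, and for 1 to 3 without 1 heart in turn, the lowest without heart 9 and the highest without heart 5, where a falling member was added; the count over all genes was 50, and 19 to 75 in these runs, with 19 without heart 9 and 131 with the first principal component of the hearts as covariate. With the members chosen without spleen 14 it was 18, and 8 to 20 without 1 heart in turn, the lowest without heart 9 (chosen after seeing the data). The slope of ENSCAFG00000002069 stayed between 0.72 and 0.77 (limma adjusted p from 0.0003 to 0.01) and that of ENSCAFG00000014812 between 0.73 and 0.88 (limma adjusted p from 0.00049 to 0.068). In the 7 other tests 0 members were called under each of 61 settings. Over all genes, the main runs of these tests called 0.155% as higher in heart than in spleen. In every other direction and test they called 0%. A count of 0 members is thus near the share over all genes, and the shares in the 61 settings are not given here. Without spleen 14, the runs of these tests were likewise chosen after seeing the data.

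Uncalled differences of the lead gene turned sign in some runs. Liver minus spleen was -1.04 to 0.90 without 1 liver tumour in turn, and male minus female was 0.37 without spleen 14. With DHSA titles only, neutered minus intact was 0.20 and Golden Retriever minus other -0.50. Its correlation with the log2 sum of FPKM in spleen was 0.13 without the 2 farthest tumours, and that with the first principal component -0.39 without spleen 14. The cause was not tested. No paired analysis was possible because the replicate numbers follow sample order and pair nothing. Without counts, no detection limit could be set.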

Other observations

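The 3 abundant genes did not keep a fixed ratio to each other. ENSCAFG00000002069 stood at 0.482 to 5.33 times the lead gene in the spleens other than spleen 14 (median 0.713), with the highest ratio in spleen 19, where the lead gene was lowest, and at 0.426 to 1.12 times in heart. On the log2 scale it rose by 0.73 per unit of the lead gene in the 31 spleens and by 0.74 in the 11 hearts, so high tumours held relatively more of the lead gene in both organs. ENSCAFG00000014812 stood at 0.46 to 1.90 times the lead gene in the same spleens and at 0.398 to 1.54 times in heart.

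The 5 genes beyond the 2 closest that both runs of the rule chose had heart correlations of 0.16 to 0.62, with a median of 0.56, and were at 0.69 to 2.33 times the median of the other spleens in spleen 14. They were singled out after their values were seen, so this is a description.

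In the tumours outside spleen and heart, the mean log2 level of the 97 weaker followers was 5.78, 4.85 and 5.58 in livers 1 to 3, where the lead gene ran from 1699 down to 114 FPKM. The second list, leaving out the 2 closest followers, was at 5.53, 4.90 and 3.99 in the same livers. The tumour of undetermined origin had the lowest levels of the 5 single tumours in both lists, 3.71 and 3.86, beside a lead gene at 219.9 FPKM.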
